A study of Mus musculus with 8 samples.

Results

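Solute carrier genes encode the membrane proteins that move sugars, amino acids, ions, metals, vitamins and metabolites across the plasma membrane and the membranes of organelles. They were followed here by bulk RNA-seq through the first days of reprogramming of mouse embryonic fibroblasts. A gene was taken when its Ensembl identifier carried a symbol of the form Slc, number, a, number, and when it reached at least 1 CPM in at least 2 of the 8 libraries, where CPM is the count scaled to a library total of 1000000. Of 334 listed genes with such a symbol, 198 were taken, 128 fell below that level, and 8 that passed it were set aside by rule (Slc2a1, Slc2a3, Slc16a1, Slc16a3, Slc38a4, Slc7a11, Slc7a5 and Slc3a2). Because a gene that passed only through the days on which it was high had to differ between days, the 172 members at 1 CPM or more in every library are also counted separately. Genes that passed only in that way include Slc15a1, Slc15a2, Slc1a3, Slc28a1, Slc45a3, Slc46a3, Slc25a48, Slc13a4 and Slc13a5, and their p-values below are descriptive. Closest above the threshold were Slc5a8, Slc8a3 and Slc13a5, whose 2 highest libraries held 1.02 and 1.07, 1.04 and 1.10, and 1.07 and 1.10 CPM. Just below it lay Slc16a11 at 1.49 and 0.996 CPM, Slc14a2 at 1.24 and 0.953 CPM, and Slc38a5 at 1.02 and 0.927 CPM. Among the 128 genes below the level, 10 were listed at 0 in all libraries, 56 exceeded 3 reads in at least 1 library, and the highest single value was 1.49 CPM.

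The fibroblasts came from male embryos of 13.5 days post coitum that were homozygous for 4F2A. This strain is known for a doxycycline-inducible cassette that joins Oct4, Sox2, Klf4 and c-Myc with 2A peptides, so the cassette can act in any cell of the culture. Doxycycline at 2 μg/mL was given from D0 in a serum-replacement medium with LIF at 1000 U/mL, added glutamine, non-essential amino acids and pyruvate, and RNA was taken on D2, D4, D6 and D8. Each of these 4 groups has 2 libraries. All 8 libraries share strain, doxycycline and medium, and all 8 titles carry the label Ctr. No library with another label, from before doxycycline or without it was used here. The labels do not say whether parallel replicates were separate cultures or how many embryos were pooled. Every p-value therefore rests on the spread between 2 libraries of a day, which may be technical.

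Counted reads per library lay between 19409936 on D8 and 20161021 on D2, so 3 reads corresponded to 0.149 to 0.155 CPM. All 10 fibroblast markers (among them Col1a1, Vim and Thy1) passed the filter, with a summed level of 38700 to 39040 CPM on D2, 46210 to 50620 on D4, 34170 to 38380 on D6, and 32310 to 36020 on D8. The terms of this sum moved in both directions from D2 to D8. Fn1 went from 13030 and 12690 CPM to 3258 and 3822, and Vim from 4832 and 4664 to 2655 and 2516. Col3a1 went from 2063 and 2031 CPM to 7919 and 9330, and Pdgfra from 10.4 and 11.6 to 79.0 and 90.8. The 7 epithelial markers summed to 37.8 to 40.5 CPM on D2, 45.5 to 54.8 on D4, 112 to 139 on D6, and 163 to 174 on D8, with Krt8 and Cdh1 as the largest terms on D8. Krt19 of the same list went the other way, from 31.4 and 30.8 CPM on D2 to 4.64 and 3.64 on D8, while 3 of the 7 did not pass the filter and Esrp1 was listed at 0 in both libraries of D2 and of D4. None of the 6 pluripotency markers (Nanog, Zfp42, Esrrb, Dppa3, Dppa5a and Utf1) passed the filter on any day, and their sum stayed between 0.393 and 1.04 CPM. The 6 markers of macrophages and blood cells summed to 58.9 to 82.2 CPM on D2, 83.4 to 88.1 on D4, 78.9 to 89.04 on D6, and 60.2 to 70.1 on D8, Lyz2 contributing most, and this is given because several members below are known from macrophages. Endothelial markers summed to 69.0 to 71.4 CPM on D2, 104 to 104 on D4, 147 to 159.8 on D6, and 164 to 166 on D8, nearly all of it Tek, and neuronal markers to 278 to 282 CPM on D2, 209 to 219 on D4, 185 to 193 on D6, and 165 to 171 on D8, nearly all of it Map2 and Tubb3. Erythroid markers stayed at or below 2.51 CPM in sum and skeletal muscle markers at or below 7.02 CPM. In bulk RNA, fewer cells of one type and less RNA per cell cannot be told apart.

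As background, solute carriers are grouped into families by sequence, and each family tends to carry one kind of substrate. Importers such as the cationic amino acid carriers load cells with nutrients, exchangers such as the sodium-proton exchangers set ion balance and pH, and the SLC25 family shuttles metabolites across the inner mitochondrial membrane. Pluripotent cells are known for high glycolysis and amino acid uptake, which places these genes at the interface of medium and metabolism during reprogramming. The members were sorted into 10 classes by the main substrate known for each family or gene. Every fold below is the ratio of mean CPM of 2 days, and every change is the difference of mean log2(CPM + 1) with its standard error (SE) from limma, which understates the change of genes at low levels. A member was called higher or lower when the Benjamini-Hochberg adjusted p over all 15358 tested genes was under 0.05.

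From D2 to D8 most members changed and more rose than fell, which also held for all tested genes. Of the calls over that interval, 69.9% were rises among members and 67.2% among all tested genes. Between D2 and D4, 93 members were higher (background 40.9% of all tested genes) and 38 lower (background 21.7%), so 66.2% of members were called against 62.5% of all tested genes. Between D4 and D6, 59 were higher and 32 lower, 46.0% of members against 37.7% of tested genes (25.2% higher, 12.6% lower). Between D6 and D8, 7 were higher and 15 lower, 11.1% against 9.11% (4.72% higher, 4.39% lower). Over the whole interval, D8 against D2, 107 were higher and 46 lower, 77.3% against 70.4% (47.3% higher, 23.1% lower). Of the 172 members expressed in every library, 92 were higher and 41 lower over that interval, 53.5% and 23.8%. The F test over the 4 days called 179 of 198 members, 90.4% against 80.4% of tested genes. The 3 steps share libraries with one another and with the whole interval, so their counts are not independent of each other.

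The balance of rises and falls depended on how libraries were scaled. On the deposited CPM scale the median of all tested genes moved by 0.107 from D2 to D4 and by 0.167 from D2 to D8 on the log2 scale, and the median of members moved by 0.16 and 0.26. With median-of-ratios scaling the members split into 81 higher and 50 lower at D4 against D2, 47 and 41 at D6 against D4, 8 and 11 at D8 against D6, and 85 and 63 over the whole interval. Under quantile normalization these pairs were 65 and 50, 46 and 44, 6 and 14, and 74 and 64. In the same order, rises made 61.8%, 53.4%, 42.1% and 57.4% of member calls after median-of-ratios scaling. Over all tested genes they made 52.0%, 48.7%, 54.8% and 51.4% of calls. After quantile normalization rises made 56.5%, 51.1%, 30.0% and 53.6% of member calls, beside 47.1%, 47.7%, 51.0% and 45.1% over all tested genes. The same all-gene shares apply to the class counts given below under these scalings. Of the 153 calls over the whole interval, 115 were made in the same direction under both scalings, namely 69 of the 107 rises and all 46 falls. At D4 against D2 the same held for 64 of 93 rises and 37 of 38 falls.

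The step from D6 to D8 was small, and its counts rested on single libraries. Without D6 replicate 2 the 7 rises became 1, without D8 replicate 1 or D8 replicate 2 they became 3, without either D2 library 4, and without either D4 library 12. The 15 falls became 7 without D6 replicate 2, 4 without D6 replicate 1, 3 without D8 replicate 1, 5 without D8 replicate 2, and 6 without either D2 library. Leaving out D6 replicate 2 also took the 32 falls of the D4 to D6 step to 19. Calls named below for the step from D6 to D8 rest on the same libraries.

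**Figure D1:**
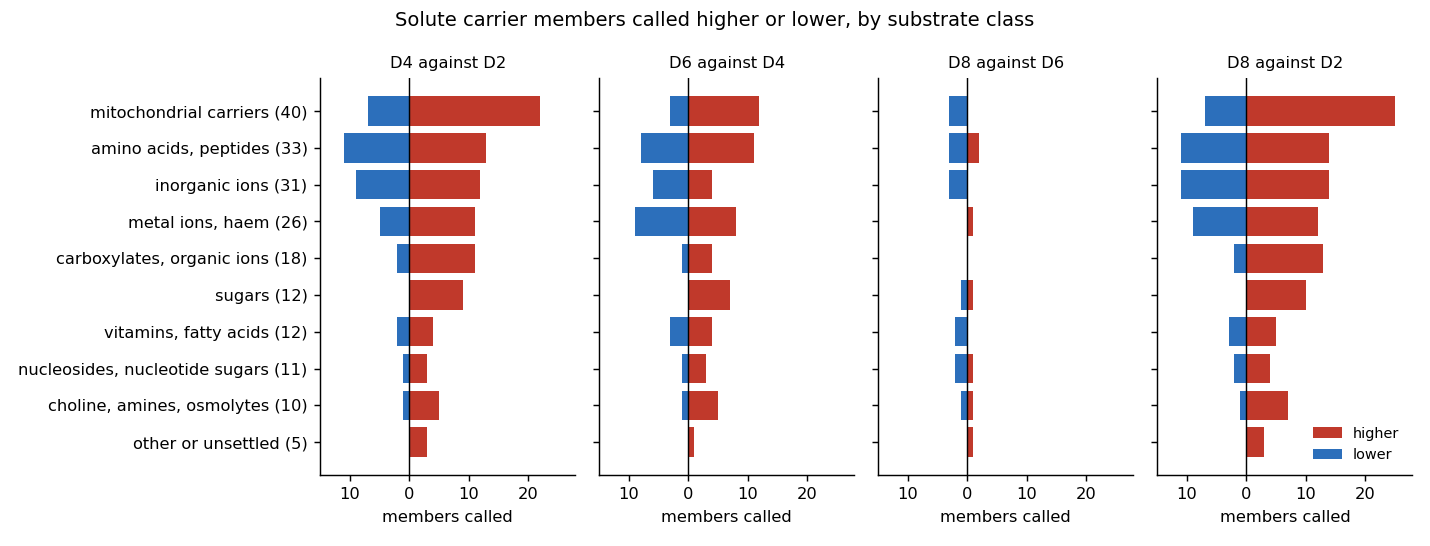
Number of solute carrier members called higher (right, red) or lower (left, blue) in each substrate class for the 4 comparisons, with the class size in parentheses. Sugar carriers had rises and no falls except at D8 against D6, while amino acid and inorganic ion carriers had both, 14 higher and 11 lower each at D8 against D2.

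D2 was the day of the lowest mean for 119 members, 60.1% against 51.2% of tested genes. The day of the highest mean was D8 for 71 members and D2 for 44, 35.9% and 22.2% against 34.1% and 26.1% of tested genes. It was D4 for 44 and D6 for 39, 22.2% and 19.7% against 18.4% and 21.4%. D8 high with D2 low was the most frequent pairing of highest and lowest day, 57 of 198 members beside 3818 of 15358 tested genes. D4 high with D2 low held 32 members (1676 tested genes), D2 high with D8 low 31 (1807), and D6 high with D2 low 30 (2368). At least a 2-fold rise over the whole interval was called for 44 members (background 16.0%) and at least a 2-fold fall for 12 (background 6.17%). By step, such rises were 22 at D4 against D2 (background 10.2%), 18 at D6 against D4 (background 4.13%) and 1 at D8 against D6 (background 0.71%). Such falls were 9 at the first step (background 4.63%) and 0 at the next 2 (background 0.495% and 0.0977%). Among the 172 members at 1 CPM or more in every library, rises of at least 2-fold were fewer, 15, 9 and 0 at the 3 steps and 30 over the whole interval, and such falls were 6, 0 and 0, and 8.

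**Figure D2:**
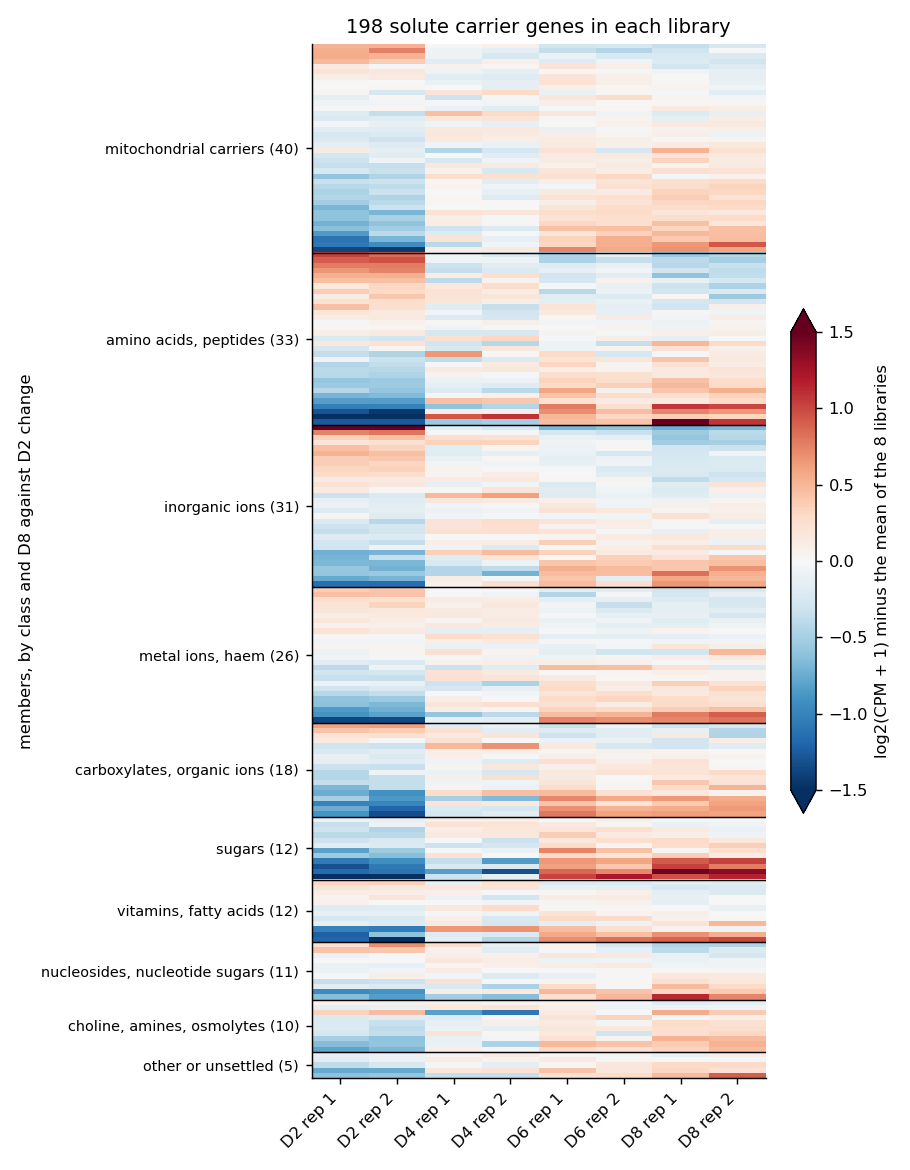
Each row is 1 of the 198 members and each column 1 of the 8 libraries, colour showing log2(CPM + 1) minus the mean of the gene over the 8 libraries, with rows grouped by class and ordered by the D8 against D2 change. The 2 libraries of a day resemble each other in most rows, and the D2 columns hold the deepest blue and the deepest red.

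The largest fall among members on the log2 scale was in Slc20a1, which encodes the sodium-phosphate importer PiT-1. Its gene (ENSMUSG00000027397, GRCm38 chr2:129198764-129211616, + strand) measured 185 and 190.1 CPM on D2, 57.3 and 53.8 on D4, 39.2 and 41.6 on D6, and 38.2 and 39.7 on D8. Both D2 libraries stood far above the other 6, and the D6 and D8 libraries overlapped. The level fell to 0.296 of D2 by D4, a change of -1.74 ± 0.057 (adjusted p = 3.6e-11), and to 0.207 of D2 by D8, a change of -2.24 ± 0.057 (adjusted p = 1.6e-12). Slc20a2, encoding the related importer PiT-2, measured 96.8 and 101 CPM on D2, 57.9 and 56.1 on D4, 48.3 and 45.3 on D6, and 39.4 and 43.3 on D8, with no overlap between neighbouring days. It fell by D8 to 0.418 of D2, a change of -1.24 ± 0.062 (adjusted p = 9.5e-10). Exons of Slc20a2 overlap Smim19 on the opposite strand, and no source used here states whether counting used strand. The phosphate exporter gene Xpr1, a solute carrier with another symbol, changed by -0.60 ± 0.059 from D2 to D8 (adjusted p = 8.1e-07).

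Promoter sequences are printed for 4 members chosen after their values were seen, so that the bases before each start can be read beside the levels. Slc20a1 and Slc37a2 had the largest fall and rise over the whole interval, and Slc7a1 and Slc30a1 are a cationic amino acid importer and a zinc exporter described below. Of the members, 151 matched a promoter window in the RefSeq table (build GRCm38.p6), giving 206 windows of 32851, and the 250 bases before the start were searched on both strands. Capitals mark the motif found. In Slc20a1 (chr2:129198523-129198772, + strand) it is the E-box CACGTG, known from MYC and TFE3, which starts 175 and 22 bases before the start. In Slc37a2 (chr9:37255739-37255988, - strand) and in Slc7a1 (chr5:148399905-148400154, - strand) it is the AP-1 letters TGANTCA, starting 107 and 123 bases before the start. In Slc30a1 (chr1:191906531-191906780, + strand) it is the metal response core TGCACNC on the opposite strand, starting 43 bases before the start.
Slc20a1: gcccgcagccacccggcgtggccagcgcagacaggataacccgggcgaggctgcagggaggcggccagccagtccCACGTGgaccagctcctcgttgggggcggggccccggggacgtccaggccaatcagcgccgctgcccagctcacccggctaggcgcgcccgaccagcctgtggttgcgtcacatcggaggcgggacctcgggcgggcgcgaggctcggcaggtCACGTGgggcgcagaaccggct
Slc37a2: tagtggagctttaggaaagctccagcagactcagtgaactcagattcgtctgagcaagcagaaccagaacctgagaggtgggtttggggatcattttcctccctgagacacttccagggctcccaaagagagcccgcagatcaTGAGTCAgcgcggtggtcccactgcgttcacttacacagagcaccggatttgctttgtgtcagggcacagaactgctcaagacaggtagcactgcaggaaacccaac
Slc7a1: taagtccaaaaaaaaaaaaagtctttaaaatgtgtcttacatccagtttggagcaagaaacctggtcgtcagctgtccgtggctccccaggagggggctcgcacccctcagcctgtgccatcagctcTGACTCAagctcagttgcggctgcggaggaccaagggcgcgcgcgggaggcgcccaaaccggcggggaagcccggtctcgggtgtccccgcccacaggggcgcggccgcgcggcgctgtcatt
Slc30a1: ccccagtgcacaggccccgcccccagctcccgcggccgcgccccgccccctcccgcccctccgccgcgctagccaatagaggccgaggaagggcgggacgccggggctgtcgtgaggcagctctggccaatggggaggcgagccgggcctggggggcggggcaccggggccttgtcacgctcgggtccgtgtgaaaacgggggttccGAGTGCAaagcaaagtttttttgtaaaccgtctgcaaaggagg

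CACGTG was in 12.1% of member windows, in 7.95% of windows of all tested genes and in 6.02% of all windows. TGANTCA was in 7.28% of member windows, 4.78% of those of tested genes and 6.75% of all. The core TGCACNC was in 12.1%, 10.8% and 10.4%, and its other form TGCGCNC in 15.0%, 20.8% and 12.5%. For factors of the cassette, the POU octamer ATGCAAAT was in 0.971%, 1.28% and 1.60% and the KLF box CCACACCC in 4.85%, 3.41% and 3.20%. TGATGNAA, the letters of the ATF4 and CEBP composite element, was in 2.43%, 2.03% and 3.45%. Members higher in D8 than in D2 held CACGTG in 10.5% of 95 windows and members lower in D8 in 9.80% of 51 windows, and TGANTCA in 6.32% and 5.88%. A match is a description of these letters in this window.

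Most sugar carriers rose and none fell over the whole interval. From D2 to D4, 9 of 12 were higher and none lower, with a median change of 0.47 beside 0.11 over all tested genes. From D2 to D8, 10 were higher and none lower (median 0.65 beside 0.17), and the class held no fall under either other scaling, with 9 higher under median-of-ratios scaling and 6 under quantile normalization. The summed level of the class was 157 and 160.4 CPM on D2, 239 and 224 on D4, 311 and 307 on D6, and 315 and 307 on D8. These 12 do not include the widely used glucose importers Slc2a1 and Slc2a3, which were set aside by rule.

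Slc37a2 had the largest rise at D8 against D2 among all members on the log2(CPM + 1) scale. It encodes a sugar phosphate exchanger of the endoplasmic reticulum that is abundant in macrophages and osteoclasts. The gene (ENSMUSG00000032122, chr9:37227585-37255738, - strand) measured 5.88 and 7.02 CPM on D2, 22.3 and 25.1 on D4, 57.1 and 65.8 on D6, and 55.1 and 63.1 on D8. Both D4 libraries lay above D2 and both D6 libraries above D4, and D6 and D8 overlapped. Its change was 1.73 ± 0.10 to D4, a further 1.34 ± 0.10 to D6 and 3.01 ± 0.10 over the whole interval, a 9.16-fold rise (adjusted p = 1.7e-11). The sum of the macrophage markers is given above and is mostly Lyz2. Mrc1 held 2.83 and 2.24 CPM on D2, 9.34 and 10.4 on D4, 5.74 and 8.49 on D6, and 5.93 and 4.26 on D8. From D2 to D8, Ptprc went from 2.2 and 3.1 to 2.3 and 2.7 and Adgre1 from 3.1 and 6.0 to 7.8 and 5.7. Csf1r went from 8.8 and 11.2 to 8.8 and 7.5 CPM, and Cd68 from 7.0 and 8.2 to 5.8 and 5.3. Lyz2 went from 35.0 and 51.4 to 39.4 and 34.6 CPM. The part of these markers in the values of Slc37a2 was not tested. Its relatives Slc37a4, the glucose-6-phosphate carrier of the endoplasmic reticulum, and Slc37a3 had D8 against D2 values of 0.50 ± 0.10 (adjusted p = 8.0e-04) and 0.096 ± 0.054 (adjusted p = 0.13).

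Slc5a9 rose later than Slc37a2. It encodes the sodium-coupled mannose and fructose carrier SGLT4 and measured 3.12 and 3.34 CPM on D2, 4.24 and 2.71 on D4, 15.9 and 14.3 on D6, and 24.6 and 22.8 on D8. D2 and D4 overlapped, D6 was above both, and D8 above D6. The change was 0.060 ± 0.14 to D4 (adjusted p = 0.73), a further 1.87 ± 0.14 to D6 (adjusted p = 7.6e-07) and 0.62 ± 0.14 to D8 (adjusted p = 0.019). Slc2a6, encoding the lysosomal hexose carrier GLUT6, measured 5.60 and 6.28 CPM on D2, 9.79 and 6.72 on D4, 20.6 and 19.8 on D6, and 25.1 and 27.01 on D8 and was 4.39-fold higher on D8 than on D2 (adjusted p = 1.7e-08). Its D4 libraries differed from each other more than those of the other days, and its D4 against D2 call was lost under both other scalings. Slc45a3 went from 0.570 and 0.872 CPM on D2 to 6.90 and 5.61 on D8, a change of 2.08 ± 0.14 (adjusted p = 1.4e-08). Slc2a12, the GLUT12 gene, peaked on D6 at 16.3 and 13.1 CPM from 4.96 and 6.20 on D2, and fell again to 9.56 and 11.4 on D8 (adjusted p = 0.045), but it shares exon bases with the more abundant Tbpl1 on the other strand. Slc50a1, the animal SWEET homologue, was the sugar carrier with the highest level per kilobase of exon at 40.1 CPM per kb and rose 1.81-fold by D8 (adjusted p = 1.9e-06). The other calls at D8 against D2 were modest, with Slc2a8, Slc5a2, Slc37a4 and Slc2a5 changing by 0.40 to 0.50. Under quantile normalization those 4 lost their calls, with Slc5a2 at -0.03.

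**Figure D3:**
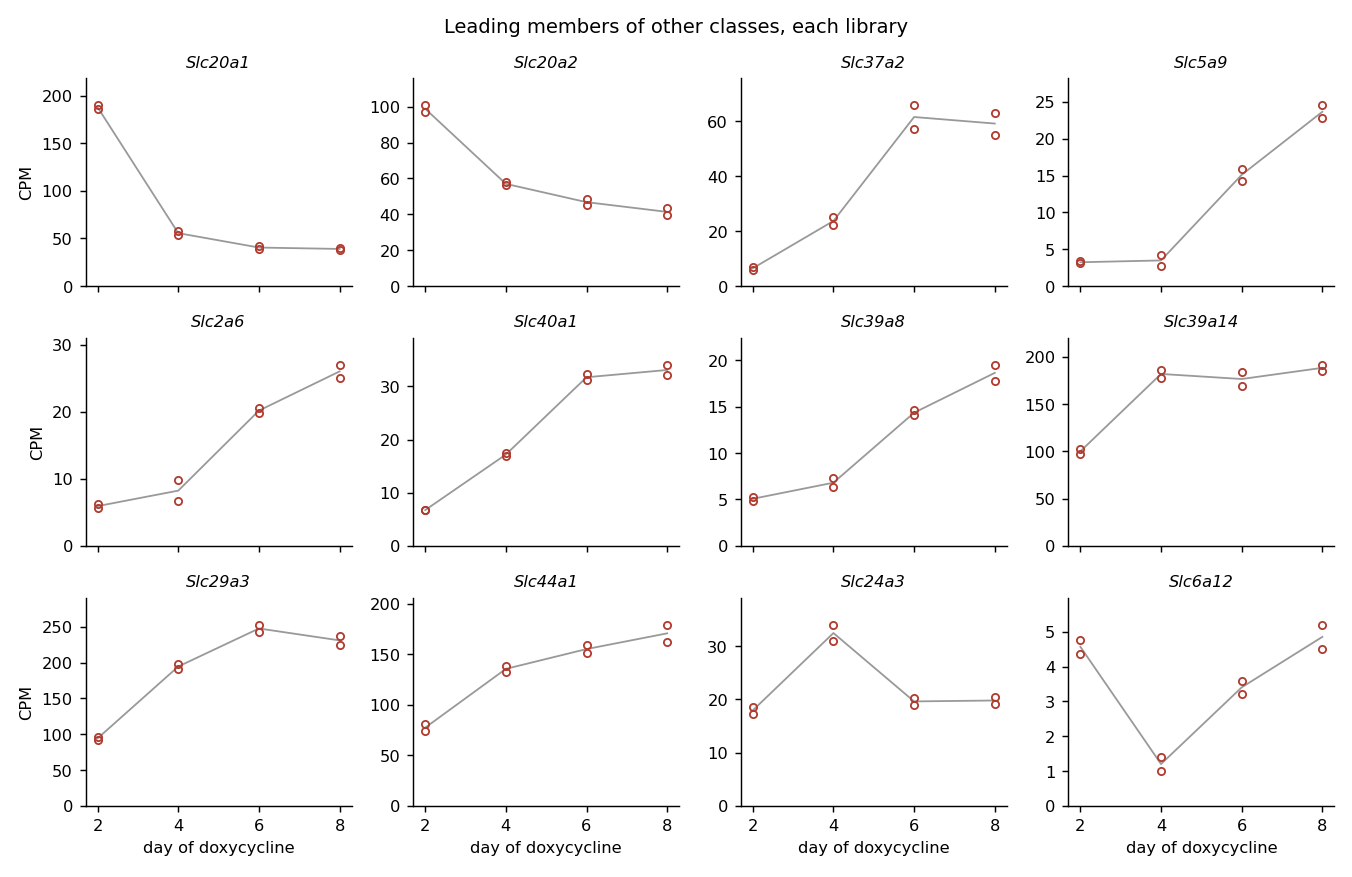
CPM in each library (open circles) against day of doxycycline for 12 leading members of classes other than amino acids, lines joining day means and each vertical axis starting at 0. Slc20a1 and Slc20a2 dropped from D2 to D4, Slc37a2 and Slc40a1 rose through D6, Slc5a9, Slc2a6 and Slc39a8 rose mainly after D4, Slc24a3 peaked on D4 and Slc6a12 was lowest on D4.

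Amino acid and peptide carriers split between rises and falls. At D8 against D2, 14 of 33 were higher and 11 lower (median 0.18), and the balance turned under the other scalings, with 13 higher and 16 lower after median-of-ratios scaling and 13 and 15 after quantile normalization (median -0.17). The summed level went from 1253 and 1255 CPM on D2 through 1420 and 1475 on D4 and 1365 and 1361 on D6 to 1290.0 and 1327 on D8.

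Slc7a1, Slc1a4 and Slc6a9, importers of cationic amino acids, small neutral amino acids and glycine, were lower from D4 on. Slc7a1, encoding the cationic amino acid importer CAT-1, measured 208 and 206 CPM on D2, 96.8 and 108 on D4, 106 and 112 on D6, and 90.7 and 95.999 on D8, and its change from D2 to D4 was -1.01 ± 0.059 (adjusted p = 9.4e-09). The gene lies at chr5:148327410-148399904, - strand on GRCm38. Both D2 libraries were above all others, and the other 6 lay between 90.7 and 112 CPM. Slc1a4, the serine and alanine exchanger ASCT1, measured 69.04 and 71.7 CPM on D2, 34.8 and 34.6 on D4, 25.99 and 28.4 on D6, and 27.3 and 25.5 on D8. It fell to 0.493 of D2 by D4 and to 0.375 by D8, a change of -1.38 ± 0.066 (adjusted p = 6.1e-10). Slc6a9, encoding the glycine carrier GLYT1, went from 22.1 and 23.4 CPM on D2 to 10.4 and 11.5 on D4 and 10.9 and 10.2 on D8, a change of -1.04 ± 0.089 (adjusted p = 2.1e-07), with the more abundant B4galt2 overlapping it on the other strand.

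Slc38a1, the glutamine carrier SNAT1, declined at every step. Its libraries measured 119 and 119 CPM on D2, 88.7 and 96.6 on D4, 66.8 and 73.3 on D6, and 53.2 and 62.8 on D8, and the 3 successive changes were -0.36 ± 0.075, -0.40 ± 0.075 and -0.27 ± 0.075 (adjusted p = 0.0011, 0.0012 and 0.043), the third of which was not called after median-of-ratios scaling (adjusted p = 0.057). The relative Slc38a2, SNAT2, known to respond to amino acid supply, stayed between 190.1 and 208 CPM in all libraries and was not called at any step (adjusted p = 0.55 for D8 against D2). Slc1a5, the glutamine exchanger ASCT2, moved the other way at 96.3 and 93.3 CPM on D2 and 143 and 145 on D8, 1.52-fold (adjusted p = 1.2e-07). Slc7a6, the y+LAT2 exchanger gene, fell to 0.698 of D2 (adjusted p = 1.9e-06), and Slc1a6, the glutamate carrier EAAT4, from 6.60 and 5.83 to 1.60 and 1.79 CPM (adjusted p = 5.3e-07).

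Slc7a2 had the largest rise from D2 to D4 of all members on the log2(CPM + 1) scale. It encodes CAT-2, the cationic amino acid carrier that supplies arginine to activated macrophages and to liver. The gene (ENSMUSG00000031596, chr8:40862396-40922308, + strand) measured 32.5 and 38.9 CPM on D2, 235 and 260.2 on D4, 174 and 152 on D6, and 158 and 153 on D8. The D4 libraries were above every other library, and D6 and D8 overlapped while staying far above D2. It rose 6.94-fold from D2 to D4, a change of 2.77 ± 0.082 (adjusted p = 1.8e-11), then fell by D6 to 0.658 of D4, a change of -0.60 ± 0.082 (adjusted p = 1.0e-04). On D2 the mean level per kilobase of exon was 17.95 CPM for Slc7a1 and 3.91 for Slc7a2, and on D4 it was 8.89 and 27.1, so the order of these 2 cationic carriers was reversed. Slc7a3, the CAT-3 gene, was low throughout, from 8.66 and 8.15 CPM on D2 to 5.12 and 5.42 on D8 (adjusted p = 6.0e-04).

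Members of the SLC43 family, which includes carriers of branched-chain and large neutral amino acids, rose early. Slc43a2, the LAT4 gene, measured 11.4 and 11.3 CPM on D2, 28.9 and 28.03 on D4, 24.6 and 22.9 on D6, and 23.3 and 25.8 on D8, with D4 above D2 in both libraries and a change of 1.26 ± 0.078 (adjusted p = 1.5e-08). Slc43a3, which groups with this family by sequence but is reported in human cells to carry purine nucleobases, measured 19.7 and 17.6 CPM on D2, 53.9 and 52.4 on D4, 81.5 and 69.2 on D6, and 83.3 and 78.7 on D8 and was 4.34-fold higher on D8 (adjusted p = 6.3e-11). Slc43a1, LAT3, reached 3.50 and 1.91 CPM on D4 from 1.24 and 1.10 on D2 (adjusted p = 0.0065).

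Among carriers of lysosomes, Slc38a9, the arginine sensor gene of the mTORC1 pathway, rose at both early steps. It went from 12.4 and 12.7 CPM on D2 through 17.7 and 17.8 on D4 to 26.2 and 23.3 on D8, 1.97-fold (adjusted p = 2.3e-07). Slc38a7, the lysosomal glutamine exporter gene, was lowest on D4, with 34.1 and 34.1 CPM between 43.5 and 44.3 on D2 and 42.03 and 40.8 on D6. Slc15a4, a lysosomal peptide and histidine carrier, had the same D4 low at 14.7 and 14.1 CPM against 18.5 and 18.9 on D2 and 17.4 and 18.7 on D6. Slc36a1 stayed at 30.1 to 34.1 CPM and was called at no step (adjusted p = 0.54 for D8 against D2).

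Peptide carriers of the plasma membrane came up from almost nothing. Slc15a1, encoding PEPT1 of the intestinal brush border, was at 0.0496 and 0.0498 CPM on D2, which is 1 read in each library, 0.716 and 0.767 on D4, 2.46 and 2.39 on D6, and 6.81 and 4.29 on D8. No 2 days overlapped, and the change over the whole interval was 2.61 ± 0.16 (adjusted p = 7.1e-09). Slc15a2, PEPT2, reached 1.39 and 1.59 CPM on D8 from 0.347 and 0.199 on D2 (adjusted p = 1.6e-04). Slc15a1 and Slc15a2 were under 1 CPM on D2 and D4 and passed the filter only through later days. A difference between days thus followed from the selection, and their p-values are descriptive. Slc1a3, encoding the glutamate carrier GLAST of glia, rose from 0.942 and 0.959 to 7.22 and 6.87 CPM, a change of 2.04 ± 0.15 (adjusted p = 5.8e-08). The epithelial marker sum was higher on D6 and D8 than on D2 and D4 through Krt8 and Cdh1, while Krt19 was lower, as given above, and their part in these rises was not tested.

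**Figure D4:**
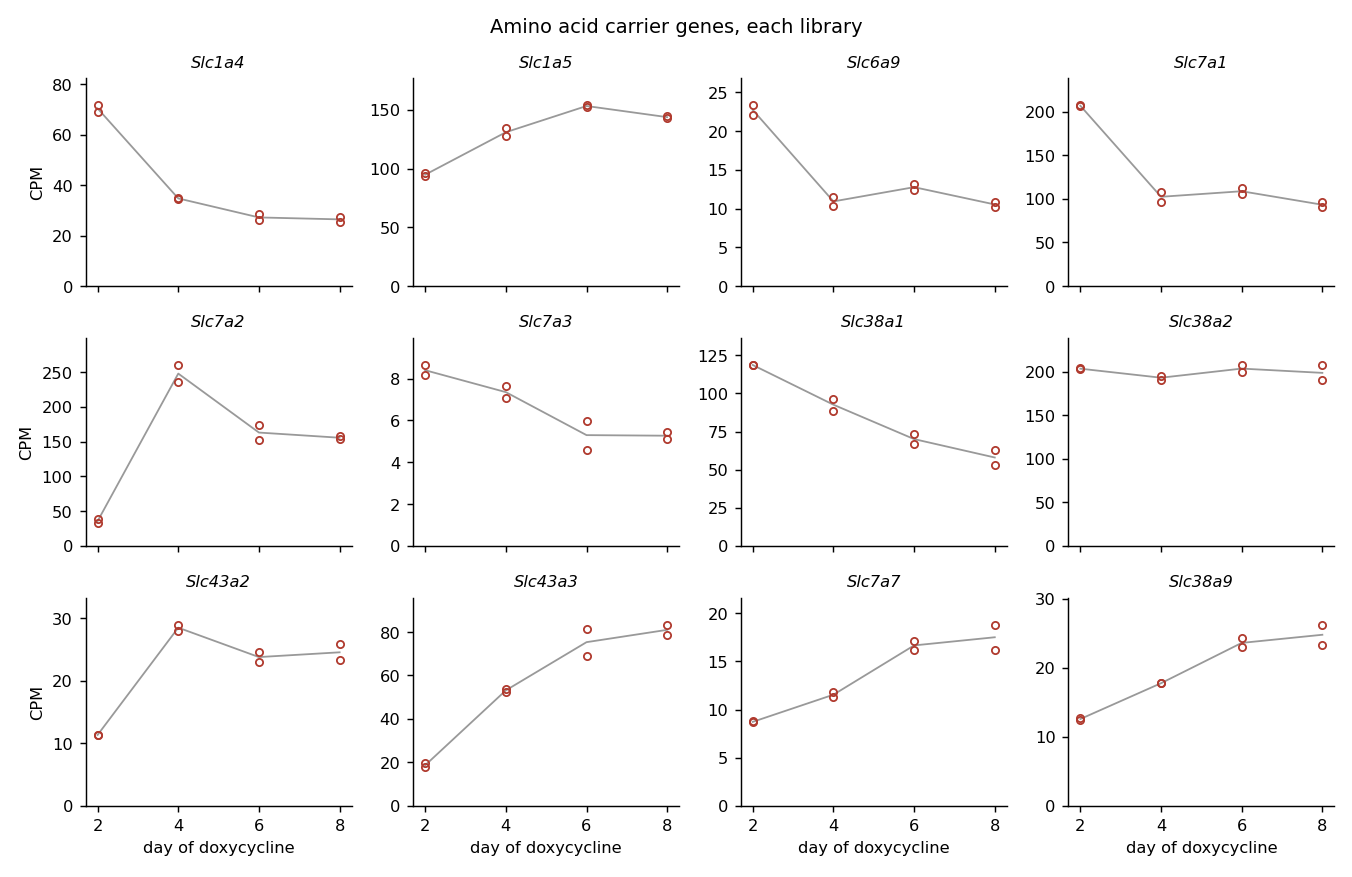
CPM in each library (open circles) against day of doxycycline for 12 members of the amino acid and peptide class, lines joining day means and each vertical axis starting at 0. Slc43a3 is placed in this class by family. Slc1a4, Slc6a9 and Slc7a1 stood highest on D2, Slc7a2 peaked on D4, Slc43a3 and Slc38a9 rose, and Slc38a2 varied within 190.1 to 208 CPM.

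Of 6 amino acid carrier genes known as targets of ATF4, the factor of the integrated stress response, 3 were lower at D4 against D2 (Slc1a4, Slc6a9 and Slc7a1) and 1 was higher (Slc1a5), with a median of -0.58 beside 0.11 over all tested genes. At D8 against D2 Slc7a3 joined the lower genes, making 4 lower and 1 higher (median -0.81 beside 0.17). Median-of-ratios scaling gave 5 lower and 1 higher there, and quantile normalization 4 and 1. This list was written with earlier results of these data known, and its counts are descriptive.

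Carriers of sodium, protons, bicarbonate, chloride, calcium, phosphate and sulphate comprised 31 members, 14 higher and 11 lower at D8 against D2 (median 0.22). Median-of-ratios scaling gave 8 higher and 13 lower, and quantile normalization 7 and 13. The 6 members of the SLC4 family, which includes bicarbonate carriers, were mostly lower, with 4 falls and 2 rises at D8 against D2 under all 3 scalings. Slc4a2, the anion exchanger AE2, measured 109 and 106 CPM on D2, 82.2 and 81.3 on D4, 77.9 and 80.6 on D6, and 71.6 and 73.2 on D8 and fell to 0.674 of D2 (adjusted p = 2.6e-07). Slc4a7, a sodium bicarbonate importer, went from 80.01 and 81.8 CPM to 52.05 and 52.1 (adjusted p = 3.6e-07). Slc4a4 and Slc4a11 fell to 0.621 and 0.584 of D2. Against these, the exchanger gene Slc4a3 rose from 14.8 and 14.99 CPM on D2 to 32.3 and 35.1 on D4 (adjusted p = 9.4e-08) and Slc4a8 from 5.75 and 5.13 on D2 to 12.2 and 14.9 on D8 (adjusted p = 4.7e-07).

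Among the potassium-chloride cotransporters, which let chloride leave the cell, Slc12a7 and Slc12a4 were lower on D8 than on D2. Slc12a7, KCC4, declined from 52.2 and 55.5 CPM on D2 to 48.8 and 47.7, 38.1 and 36.8, and 27.1 and 30.1, with both later steps called and a D8 against D2 change of -0.89 ± 0.066 (adjusted p = 5.0e-08). Slc12a4, KCC1, went from 131 and 129.8 CPM to 91.6 and 86.9 (adjusted p = 2.4e-06). Slc12a8 stayed at 3.57 to 4.50 CPM through D4 and reached 9.34 and 9.31 on D6 (adjusted p = 3.6e-05). The importer Slc12a2, NKCC1, was higher on D4 by 0.31 ± 0.069 (adjusted p = 0.0016), a call lost under quantile normalization, and was not called at D8 against D2 (adjusted p = 0.083).

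Sodium-proton exchangers of the SLC9 family had 4 rises and 1 fall at D8 against D2, but 1 and 1 after median-of-ratios scaling and 2 and 1 after quantile normalization. Slc9a9, the endosomal exchanger NHE9, measured 4.32 and 4.28 CPM on D2, 11.2 and 12.8 on D4, 15.1 and 12.9 on D6, and 17.5 and 16.5 on D8, all later libraries above D2, with a change of 1.76 ± 0.10 (adjusted p = 4.3e-09). Slc9a5, NHE5, held 18.1 and 18.6 CPM on D2 and 20.3 and 20.2 on D4, then fell to 10.7 and 10.9 on D8 (adjusted p = 2.0e-06). The D8 against D2 call of Slc9a8 was among those lost with median-of-ratios scaling. The sodium pump that builds the gradient used by many carriers had 7 of 12 subunit genes above the filter, 5 lower and 2 higher at D8 against D2, and 5 and 1 under either other scaling. Its regulatory subunit gene Fxyd5 went from 145 and 151 CPM to 45.5 and 41.6 (adjusted p = 2.1e-10).

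Metal and haem carriers comprised 26 members, 12 higher and 9 lower at D8 against D2 (median 0.14), but 10 and 11 with median-of-ratios scaling and 10 and 10 under quantile normalization (median -0.10). Slc40a1 encodes ferroportin, the iron exporter. The gene (ENSMUSG00000025993, chr1:45908068-45926523, - strand) measured 6.70 and 6.77 CPM on D2, 17.4 and 16.9 on D4, 32.3 and 31.2 on D6, and 32.1 and 34.04 on D8, with D2, D4 and D6 fully separate and D6 and D8 overlapping. It rose 4.91-fold, a change of 2.14 ± 0.074 (adjusted p = 2.7e-11). On the import side, Slc39a14, the zinc, iron and manganese importer ZIP14, measured 102 and 97.6 CPM on D2, 177 and 186 on D4, 184 and 169 on D6, and 191 and 185 on D8, a step at D4 of 0.86 ± 0.054 (adjusted p = 1.9e-08) followed by a plateau. Slc39a8, its closest relative ZIP8, rose after D4 from 6.29 and 7.32 CPM to 14.1 and 14.6 on D6 and 17.8 and 19.5 on D8, a change of 1.69 ± 0.10 over the whole interval (adjusted p = 5.3e-09), and its smaller D4 against D2 call was lost under quantile normalization. Slc11a2, the divalent metal importer DMT1, was 1.48-fold higher on D4 than on D2 (adjusted p = 2.3e-06).

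Slc48a1, HRG1, which carries haem from lysosomes to the cytosol, ranked 5 among members by level per kilobase of exon at 73.9 CPM per kb. It measured 188 and 185 CPM on D2, 162 and 144 on D4, 240.4 and 219 on D6, and 256 and 232 on D8, with both D4 libraries lowest and the D6 and D8 libraries highest and overlapping. The change was -0.29 ± 0.067 at D4 against D2 (adjusted p = 0.0021) and 0.59 ± 0.067 at D6 against D4 (adjusted p = 2.5e-05), and Hdac7 overlaps it on the other strand. Slc31a2, the copper carrier CTR2, rose 2.40-fold by D8 (adjusted p = 1.1e-08), while Slc31a1, the copper importer CTR1, went from 70.4 and 67.5 CPM to 55.1 and 57.98 (adjusted p = 5.6e-04). The magnesium carriers Slc41a1, Slc41a2 and Slc41a3 were all lower on D8 than on D2, with changes of -0.17 ± 0.058, -0.64 ± 0.11 and -0.46 ± 0.11.

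Zinc carriers divide into ZIP importers (SLC39), which bring zinc into the cytosol, and ZnT exporters (SLC30), which remove it. Of 14 ZIP genes listed, 11 passed the filter, and at D8 against D2 5 were higher and 3 lower, with 4 and 5 after median-of-ratios scaling and 4 and 4 after quantile normalization. Slc39a6, ZIP6, went down stepwise over 116 and 119.8 CPM on D2, 89.9 and 90.3 on D4, 80.3 and 80.2 on D6, and 73.8 and 76.3 on D8, with no overlap of D2, D4 and D6 (adjusted p = 6.3e-08 for D8 against D2). Slc39a7, the ZIP7 gene that releases zinc from the endoplasmic reticulum, fell to 0.716 of D2 (adjusted p = 8.9e-07). Slc39a1, ZIP1, was highest on D4 at 225 and 219 CPM between 188 and 183 on D2 and 168 and 170.1 on D6. Slc39a11 and Slc39a3 rose 1.78-fold and 1.52-fold.

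Of 10 ZnT genes, 6 passed, with 3 higher and 2 lower at D8 against D2, and 2 and 2 under either other scaling. Slc30a1, ZnT1, the exporter of the plasma membrane whose promoter is shown above, held 16.6 and 17.6 CPM on D2, 17.2 and 18.9 on D4, 25.5 and 22.2 on D6, and 23.3 and 26.3 on D8, a change of 0.51 ± 0.091 (adjusted p = 2.2e-04). Slc30a7, which loads the early secretory pathway, was highest on D4 and rose 1.27-fold by D8 (adjusted p = 6.7e-05). Slc30a4 fell to 0.792 and Slc30a9, the mitochondrial member, to 0.904 of D2. No ZnT gene reached a 2-fold change.

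The 40 mitochondrial carriers of the SLC25 family were the largest class, with 25 higher and 7 lower at D8 against D2 (median 0.34 beside 0.17). Median-of-ratios scaling gave 18 and 9 and quantile normalization 17 and 10. Their summed level was 2347 and 2362 CPM on D2, 2380.2 and 2272 on D4, 2554 and 2499 on D6, and 2511 and 2429 on D8. The ADP/ATP exchanger Slc25a4 was the member with the highest level per kilobase of exon, 182 CPM per kb, and was not called between D2 and D8 at -0.025 ± 0.057 (adjusted p = 0.72), while quantile normalization put it at 0.17 (adjusted p = 0.0094). The phosphate carrier Slc25a3 fell to 0.822 of D2 (adjusted p = 1.9e-04), and the ubiquitous ADP/ATP exchanger Slc25a5 was not called at 0.10 ± 0.050 (adjusted p = 0.079).

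Slc25a42, the coenzyme A carrier, had the largest rise of the class on the log2(CPM + 1) scale. Its libraries measured 13.2 and 12.5 CPM on D2, 38.02 and 39.4 on D4, 59.7 and 53.4 on D6, and 57.5 and 54.2 on D8, with D2, D4 and D6 apart and D6 and D8 overlapping. The rise was 4.34-fold, a change of 2.04 ± 0.070 (adjusted p = 2.5e-11). Slc25a48, a choline carrier, went from 0.546 and 0.697 to 4.07 and 5.18 CPM (adjusted p = 2.2e-07), and the brain uncoupling protein relative Slc25a27 from 1.64 and 2.54 to 6.49 and 6.87 (adjusted p = 3.9e-06). Slc25a38, the glycine carrier of haem synthesis, rose 2.02-fold (adjusted p = 1.5e-07), and the mitoferrin genes Slc25a37 and Slc25a28 1.78-fold and 1.81-fold (adjusted p = 2.9e-08 and 1.9e-07). Slc25a39, the mitochondrial glutathione carrier gene, was lower on D8 at 0.886 of D2 (adjusted p = 0.014). Slc25a20, which exchanges carnitine and acylcarnitine for fatty acid oxidation, went from 37.9 and 37.5 to 66.99 and 60.5 CPM (adjusted p = 9.5e-07).

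The ATP-magnesium and phosphate carriers, which set the adenine nucleotide pool of the matrix, did not move together. Slc25a24 fell over 159.9 and 161 CPM on D2, 114 and 118 on D4, 92.9 and 93.5 on D6, and 88.05 and 94.5 on D8, a change of -0.81 ± 0.050 (adjusted p = 9.1e-09), and Slc25a25 fell to 0.603 of D2 (adjusted p = 4.7e-05). Slc25a23 instead peaked on D4, at 19.03 and 17.1 CPM between 12.0 and 10.5 on D2 and 15.5 and 13.1 on D6. The pyrimidine nucleotide carriers also parted, Slc25a36 rising 1.66-fold (adjusted p = 1.1e-07) and Slc25a33 falling to 0.50 of D2 (adjusted p = 1.1e-04). Slc25a30 went from 34.5 and 33.5 CPM on D2 to 21.8 and 19.3 on D4 (adjusted p = 5.6e-06) and stayed between 19.5 and 21.7 afterwards. The citrate carrier Slc25a1 and the oxoglutarate carrier Slc25a11 were not called between D2 and D8 (adjusted p = 0.47 and 0.17). The aspartate-glutamate carriers Slc25a12 and Slc25a13 changed by 0.29 ± 0.056 and 0.39 ± 0.076, and Slc25a12 lost its call under both other scalings and Slc25a13 under quantile normalization.

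**Figure D5:**
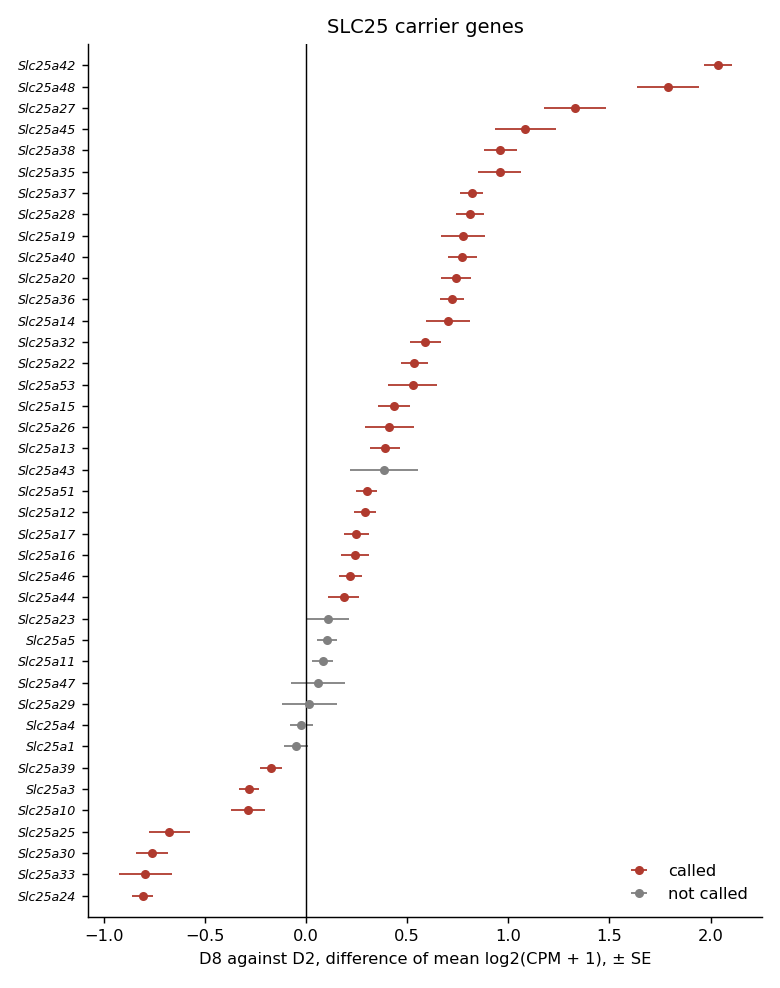
Difference of mean log2(CPM + 1) between D8 and D2 for each of the 40 SLC25 members, bars showing 1 SE from limma and colour showing whether the adjusted p was under 0.05. Slc25a42 and Slc25a48 lie farthest to the right and Slc25a24, Slc25a33 and Slc25a30 farthest to the left, with 8 members not called.

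Carriers of carboxylates, organic ions and drugs, 18 members, were mostly higher, with 13 rises and 2 falls at D8 against D2 (median 0.46). Median-of-ratios scaling gave 10 and 3 and quantile normalization 7 and 4. Slc16a9, a carnitine and creatine carrier, measured 3.94 and 4.03 CPM on D2, 10.4 and 10.002 on D4, 12.3 and 10.5 on D6, and 12.004 and 14.04 on D8 and rose 3.27-fold (adjusted p = 4.1e-08). Slc22a18 went from 5.56 and 3.83 CPM on D2 to 16.7 and 14.8 on D6, and Slc10a4 from 1.22 and 0.623 to 6.05 and 5.22. Slc2a9, the urate carrier, rose from 5.36 and 4.68 CPM on D2 to 11.9 and 13.6 on D4 (adjusted p = 9.2e-07). Slc22a5, the carnitine importer OCTN2, rose 1.67-fold by D8 (adjusted p = 4.0e-05). Slc13a4, a sodium-sulphate carrier sorted here by family, was under 1 CPM through D4 and at 3.18 and 2.76 on D6 (adjusted p = 2.8e-05). Slc13a5, the citrate importer, fell from 1.07 and 1.10 CPM on D2 to 0.200 and 0.276 on D4 (adjusted p = 2.8e-04). Slc13a4 and Slc13a5 passed the filter only through the days on which they were high, so their p-values are descriptive.

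Some members were highest on D4 and came back. Slc24a3, the sodium, potassium and calcium exchanger NCKX3, held 17.3 and 18.6 CPM on D2, 30.96 and 34.04 on D4, 18.9 and 20.4 on D6, and 19.2 and 20.5 on D8, with both D4 libraries above the other 6. It rose by 0.82 ± 0.080 to D4 (adjusted p = 1.3e-06) and changed by -0.70 ± 0.080 at the next step (adjusted p = 2.6e-05). It had the largest D4 excess of any member, 0.698 on the log2 scale above the higher of D2 and D6, beside 0.602 for Slc7a2. Slc27a3, a fatty acid carrier and acyl-CoA synthetase, measured 26.9 and 26.2 CPM on D2, 87.04 and 88.8 on D4, 76.7 and 65.6 on D6, and 58.01 and 53.4 on D8, a 3.31-fold rise to D4 (adjusted p = 4.1e-10) with falls at both later steps (adjusted p = 0.0049 and 0.013). The opposite shape was clearest in Slc6a12, the betaine and GABA carrier BGT-1 that responds to osmolality. It held 4.36 and 4.78 CPM on D2, 1.40 and 1.00 on D4, 3.59 and 3.22 on D6, and 5.20 and 4.51 on D8, both D4 libraries below all others, with a change of -1.35 ± 0.13 (adjusted p = 9.1e-07) followed by 1.01 ± 0.13 (adjusted p = 5.5e-05). Its D4 deficit, taken against the lower of D2 and D6, was 1.01 on the log2 scale, beside 0.331 for Slc25a43, the next member.

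Among nucleoside and nucleotide sugar carriers, 4 of 11 were higher and 2 lower at D8 against D2, but 4 and 5 under median-of-ratios scaling and 3 and 4 under quantile normalization. Slc29a3, the lysosomal nucleoside carrier ENT3, had the highest level per kilobase of the class at 32.9 CPM per kb and measured 92.2 and 96.3 CPM on D2, 191 and 198 on D4, 253 and 243 on D6, and 225 and 237 on D8. It rose 2.45-fold, a change of 1.29 ± 0.050 (adjusted p = 7.7e-11). Of the plasma membrane carriers ENT1 and ENT2, Slc29a1 fell from 57.4 and 55.7 CPM on D6 to 46.8 and 42.2 on D8 (adjusted p = 0.0059) and Slc29a2 went from 8.83 and 8.67 on D2 to 4.54 and 5.34 on D8 (adjusted p = 8.6e-05). Slc28a1, the concentrative pyrimidine nucleoside carrier, came from 0.198 and 0.0498 CPM on D2 to 3.09 and 2.10 on D8 (adjusted p = 5.0e-07). Because it was under 1 CPM on D2, it passed the filter only through later days, and its p-value is descriptive. Slc35a1, which brings CMP-sialic acid to the Golgi, rose 1.47-fold (adjusted p = 5.4e-05), while the UDP-galactose carrier Slc35a2 and the acetyl-CoA carrier Slc33a1 were not called between D2 and D8 (adjusted p = 0.17 and 0.21).

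Vitamin and fatty acid carriers, 12 members, had 5 rises and 3 falls at D8 against D2, but 4 and 5 under median-of-ratios scaling and 3 and 5 under quantile normalization. Slc52a3, a riboflavin importer of intestine, went from 1.84 and 1.10 CPM on D2 to 4.84 and 3.76, 9.53 and 10.5, and 10.97 and 11.99, a change of 2.36 ± 0.15 (adjusted p = 9.5e-09). Its relative Slc52a2 fell to 0.678 of D2 (adjusted p = 9.8e-04). The thiamine importer Slc19a2 held 91.9 and 89.2 CPM on D2 and 66.9 and 69.3 on D8 (adjusted p = 7.2e-06). The reduced folate carrier Slc19a1 stayed at 19.6 to 22.8 CPM and was not called at any step (adjusted p = 0.26 for D8 against D2), and the vitamin C carrier Slc23a2 was higher on D4 (adjusted p = 1.6e-04) and not called on D8 against D2 (adjusted p = 0.11).

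Choline, amine and osmolyte carriers had 7 of 10 members higher and 1 lower at D8 against D2, 6 and 1 under median-of-ratios scaling and 5 and 2 under quantile normalization. Slc44a1, the choline carrier CTL1, measured 74.3 and 80.6 CPM on D2, 139 and 132 on D4, 159 and 152 on D6, and 162 and 179 on D8, every later library above D2, and rose 2.21-fold (adjusted p = 1.9e-09). Slc44a2 moved the other way, from 184 and 187 CPM to 158 and 161 (adjusted p = 0.0014). The importers for the osmolytes taurine (Slc6a6) and myo-inositol (Slc5a3) were higher on D6 than on D4, 279 and 307 against 212 and 238 CPM and 25.2 and 24.9 against 20.8 and 20.2 (adjusted p = 5.2e-04 and 0.011). Slc2a13, the proton-coupled myo-inositol carrier, rose 2.18-fold by D8 (adjusted p = 2.1e-07). The creatine importer Slc6a8 was highest on D4 at 126 and 132 CPM and not called at D8 against D2 (adjusted p = 0.30). Of the 5 members with unsettled substrates, Slc22a17, a receptor for lipocalin, and Slc22a23 rose 2.07-fold and 2.76-fold.

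A list of 12 carriers of the lysosomal membrane, drawn from several classes, had 7 rises and 1 fall at D8 against D2 (median 0.32 beside 0.17). The rises were Slc12a9, Slc17a5, Slc26a11, Slc29a3, Slc38a9, Slc46a3 and Slc48a1, and the fall was Slc15a3. With median-of-ratios scaling the counts were 5 and 4 and with quantile normalization 4 and 4, with a median of -0.05 in the latter. Slc12a9 and Slc26a11 lost their calls under both and Slc17a5 under quantile normalization. Slc46a3 rose from 0.149 and 0.747 CPM on D2 to 3.30 and 2.92 on D8 (adjusted p = 2.5e-06). Slc15a3 lay between 17.2 and 19.3 CPM on D2 and D4 and at 12.1 and 10.8 on D8 (adjusted p = 3.8e-05), with Tmem132a more abundant on the other strand. Slc11a1, the phagosomal metal carrier of macrophages, was at 1.09 to 2.82 CPM and not called between D2 and D8 (adjusted p = 0.17).

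Solute carriers with symbols outside the pattern were listed for comparison. Of 48 such genes, 42 passed the filter, with 18 higher and 10 lower at D8 against D2, but 12 and 17 after median-of-ratios scaling and 9 and 17 after quantile normalization. Ucp2, the mitochondrial uncoupling protein that also belongs to SLC25, went from 6.37 and 6.60 CPM on D2 to 33.1 and 32.3, 165 and 136, and 195 and 188, a change of 4.69 ± 0.077 (adjusted p = 5.7e-14), larger than that of any of the 198 members. In the other direction Nipal1, a magnesium carrier, dropped from 46.4 and 46.2 CPM on D2 to 1.70 and 1.35 on D4 (adjusted p = 5.8e-12), and Slco4a1, an organic anion carrier, from 11.3 and 10.6 to 0.899 and 1.55 (adjusted p = 1.7e-08). The mitochondrial pyruvate carrier genes Mpc1 and Mpc2 had D8 against D2 values of 0.36 ± 0.089 and 0.20 ± 0.080 (adjusted p = 0.0028 and 0.041). Slc8b1, the mitochondrial sodium-calcium exchanger, rose from 12.2 and 10.2 to 43.9 and 40.2 CPM (adjusted p = 1.1e-09).

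Counting limits touch some of these values. Of the 198 members, 27 have an exon overlapping another tested gene, 25 of them on the opposite strand, and for 14 the other gene had the higher mean level, including Slc7a7 with Oxa1l, Slc5a6 with Atraid, Slc39a13 with Psmc3, Slc25a26 with Lrig1 and Slc26a10 with B4galnt1. Without a stated strand setting, reads of such partners cannot be told apart.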

How the data were processed

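RNA of 8 bulk libraries was sequenced on a BGISEQ-500, and per the submitters' processing notes reads were trimmed with Trimmomatic 0.39 and counted over genes of build mm10 with featureCounts; no source used here names the aligner or the strand setting. The table the authors deposited is called TPM, but it holds CPM, counts scaled to 1000000: every library sums to 1000000, and the values are whole or fractional multiples of 1 step per library that is the same for every gene, whatever its length. Since 52.8% to 54.3% of values above 0 came out as whole reads (within 0.0002 of a read), the others being fractions of a read, no count test was run. Symbols were matched to 32029 of 32108 gene identifiers with the GENCODE annotation, and 15358 genes at 1 CPM or more in at least 2 libraries were tested.

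The test was limma 3.58.1 (R 4.3.3) on log2(CPM + 1), with a coefficient per day, an intensity trend, all 8 libraries and 4 residual degrees of freedom, and adjustment after Benjamini-Hochberg over the whole table. It was checked on simulated data. Exon length for levels per kilobase is the union of annotated exons, and RefSeq promoter windows were searched for exact letters. Genes were named by rule: those above 5 CPM with the 6 largest called rises and falls of each comparison, the 3 highest levels and 4 largest changes of each class, the 5 largest D4 excesses and deficits, the members nearest the threshold and those of the lists, 108 in all. Further genes (among them Slc12a2, Slc22a5, Slc36a4, Slc41a1 and Slc25a12) were named after their values were seen, and some genes the rule names are not reported here. Members, classes and lists were chosen with earlier results of these data known. Alternatives were another pseudocount, no filter, 2 other scalings, no trend, only the days compared, a replicate block and leaving out each library.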

Additional observations from a re-analysis of the deposited data

How the results depend on the processing

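Of 432 results for single genes, 237 were called, and 167 of these kept call and direction under every alternative run. The counts of the D6 to D8 step depended on the settings most. Its 7 rises became 3 without the intensity trend, 4 with a pseudocount of 0.1 and 0 without the filter on low values, and 1 to 12 on leaving out single libraries. Its 15 falls became 5, 9 and 2 under those 3 settings and 3 to 17 on leaving out single libraries. The 2 other scalings moved the balance of rises and falls, with the counts given in the report. On leaving out single libraries the 32 falls at D6 against D4 ranged from 19 to 36, and over all alternatives from 19 to 44. Other counts stayed within 1.5 times of the reported ones under all alternatives. On leaving out single libraries they were 80 to 94 rises and 29 to 39 falls at D4 against D2, 41 to 60 rises at D6 against D4, 97 to 108 rises and 42 to 47 falls at D8 against D2, and 162 to 180 members in the F test. Over all alternatives they were 65 to 95 and 29 to 50, 41 to 61, 74 to 109 and 42 to 64, and 160 to 180. Signs turned under quantile normalization at D8 against D2 for Slc10a3 (-0.0339), Slc12a9 (-0.0203), Slc22a15 (-0.30), Slc25a23 (-0.247), Slc26a11 (-0.0755), Slc6a12 (-0.38) and Slc25a4 (0.166), the last also at D4 against D2 (0.123). Median-of-ratios scaling turned Slc30a5 (-0.0348), Slc35a4 (-0.128) and Slc38a10 (-0.00252) at D8 against D2. The cause was not tested.

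With a replicate block the members called were 94 higher and 38 lower at D4 against D2, 61 and 33 at D6 against D4, 8 and 17 at D8 against D6, and 109 and 46 at D8 against D2, and none of the 237 calls of the 108 genes named by rule was lost. Deviations of same-numbered libraries correlated at -0.102 to 0.207 between days. With 2 libraries a day, these correlations cannot decide whether same-numbered libraries share an origin. The 2 libraries a day limit precision, and when 1 is left out the other is taken to vary like the rest. At 3 reads, 0.149 to 0.155 CPM, members such as Slc15a1 on D2 cannot be told from 0.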
